A study of Mus musculus with 18 samples.

Results

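The replication-dependent histone genes were taken as the protein-coding genes of the deposited count files whose GENCODE M21 symbol starts with Hist1h, Hist2h, Hist3h or Hist4h. There were 67 such genes among 55536 gene entries, and 3 entries of the same naming that are not protein-coding were left out. Of the 67, 18 had a mean of at least 1 CPM (a gene's counts for each 1000000 gene counts of its library) in at least 1 of the 6 groups, and 49 did not. The libraries came from a study of bone marrow cells of BALB/c mice that were cultured for 4 days to induce myeloid cells. Each library was made from RNA of a pool of 3 mice after selection of polyadenylated RNA, and there were 3 libraries in each group, 18 in all. Wild-type (WT) mice were set against mice labelled Cysltr1-/-, which lack a receptor for cysteinyl leukotrienes. All 6 groups received 40 ng/mL of the growth factor GM-CSF, so no group was grown without it. The first pair of groups had GM-CSF alone. The second pair also had 40 ng/mL of the cytokine IL-6. The third pair had GM-CSF in 50% v/v medium conditioned for 24 h by EMT6 cells, a mouse mammary tumour line. The labels do not state whether the 3 libraries of a group came from separate pools, so p-values here measure the spread between these libraries, which may be technical.

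Nucleosomes hold DNA around a core of the histones H2A, H2B, H3 and H4, and the linker histone H1 binds where the DNA enters and leaves. Replication-dependent histone genes lie in clusters, mostly lack introns, and are transcribed mainly in S phase, when new DNA must be packaged. Most of their mRNAs do not carry a poly(A) tail: they end a few bases after a conserved stem-loop that is bound by the stem-loop binding protein Slbp. Polyadenylated forms, ending at a signal further downstream, are known from cells that have left the cell cycle. The libraries here therefore measured the polyadenylated share of these transcripts and caught the others only in part.

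The stem-loops are printed because they mark where the form without a tail ends, and because the annotated transcripts of the measured genes run on past them. The search was for a stem of 6 exact base pairs starting with GG, closed by a loop of 4 bases starting with TT. It followed the stop codon in an annotated transcript of 44 of the 67 genes. Anywhere in a transcript, before or after the stop codon, the same pattern was in 0.594% of 21901 protein-coding genes, histone genes included. Capitals mark the stem-loop, and 5 bases are given on each side, 5′ to 3′ on the gene's strand (GRCm38).
Hist1h1c, chr13:23739507-23739532, plus strand: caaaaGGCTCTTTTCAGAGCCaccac
Hist1h1d, chr13:23555782-23555807, plus strand: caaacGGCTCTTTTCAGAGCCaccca
Hist1h1e, chr13:23621777-23621802, minus strand: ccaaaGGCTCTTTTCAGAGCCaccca
Hist1h2ac, chr13:23683472-23683497, minus strand: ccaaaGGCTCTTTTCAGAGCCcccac
Hist1h3d, chr13:23576239-23576264, plus strand: ccaaaGGCTCTTTTCAGAGCCacccc
Hist1h4d, chr13:23581945-23581970, plus strand: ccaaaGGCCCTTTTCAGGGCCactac
Hist1h4i, chr13:22040961-22040986, minus strand: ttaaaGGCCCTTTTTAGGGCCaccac
Hist2h4, chr3:96262934-96262959, minus strand: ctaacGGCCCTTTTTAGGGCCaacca
Hist4h4, chr6:136803993-136804018, minus strand: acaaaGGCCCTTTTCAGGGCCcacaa

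The form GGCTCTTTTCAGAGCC was found in 26 genes, none of them an H4 gene. The form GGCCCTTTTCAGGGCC was found in 7 genes and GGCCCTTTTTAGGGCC in 2, all of them H4 genes. The 26 bases printed for Hist1h1e were the same in Hist1h2be (chr13:23585526-23585551), Hist1h2bg (chr13:23571838-23571863) and Hist3h2a (chr11:58955167-58955192). In the 13 genes at the minimum that had a stem-loop, all 13 annotated transcripts ran more than 100 bases past it. Among the 31 genes below the minimum with a stem-loop, 9 did so. The annotated transcript went on for 840 bases after the stem-loop in Hist1h1c, 330 bases in Hist1h4i, 2010 bases in Hist1h2ac and 4884 bases in Hist1h1d. The polyadenylation signal AATAAA stood in the last 50 bases of an annotated transcript in 7 of the 18 genes, among them Hist1h1c, and in 8 of the 49 below the minimum. Annotated ends can themselves rest on polyadenylated transcripts, so length past the stem-loop and level may not be independent.

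No stem-loop was found in the annotated transcripts of 5 of the 18, namely Hist1h1a, Hist1h2af, Hist1h2ba, Hist1h2bc and Hist2h2be. The annotated transcripts of Hist1h1a, Hist1h2af and Hist1h2ba have only 741, 399 and 384 bases. A stem-loop past an annotated end, or one with an imperfect stem, would not have been found, so these genes cannot be said to lack one. Hist1h2bc, an H2B gene, is built differently from most of the family. Its annotation has a first exon at chr13:23684199-23684621, 423 bases with 378 coding bases, and a second exon at chr13:23692176-23692908, 733 bases with no coding base. Reads over that second exon are counted for the gene.

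Near-identical copies limited what could be counted. The count of windows of 50 bases that a gene shares exactly with transcripts of other genes was used as the measure. More than 50% of windows were shared in 34 of the 67 genes, and 1 of those 34 was at the minimum, Hist1h2af with 94.0%. The 5 genes with 0 counts in all 18 libraries (Hist2h2aa1, Hist2h2aa2, Hist2h3c1, Hist2h3b and Hist2h2bb) had every window shared, so their 0 cannot be read as absence. The values of Hist1h2af are uncertain for the same reason. Hist1h1c shared 8.54% of its windows, Hist2h2be none and Hist1h2bc 30.6%. Exons of 5 of the 18 genes overlapped another annotated gene (Hist1h2ac, Hist1h1e, Hist1h2be, Hist3h2a and Hist1h2af), and whether the counting used strand is not given in the sources used here.

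**Figure D1:**
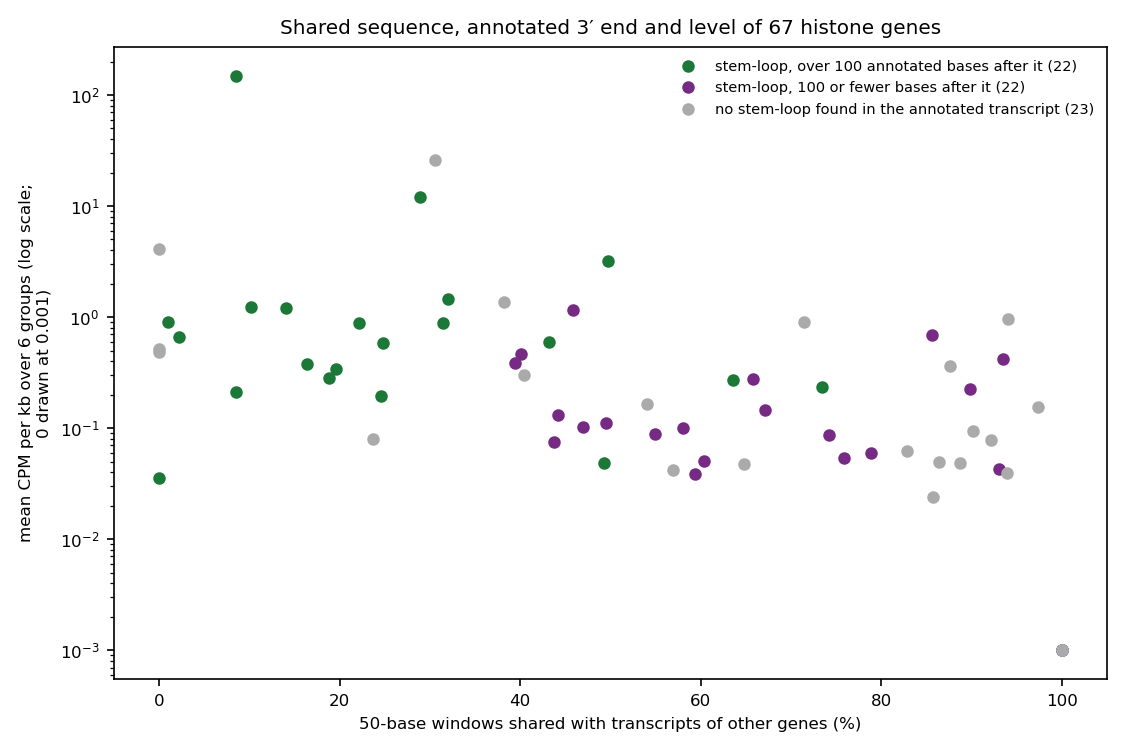
Each point is 1 of the 67 genes, with the percent of its 50-base windows shared with transcripts of other genes on the x axis and its mean CPM per kb of exon over the 6 groups on a log y axis (0 drawn at 0.001); colour gives the annotated 3′ end. The highest points, Hist1h1c at 149 and Hist1h2bc at 26.0 CPM per kb, lie at 8.54% and 30.6% shared windows, and the genes with all windows shared lie at the bottom right.

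By class, 4 of 6 H1 genes, 3 of 18 H2A genes, 6 of 18 H2B genes, 1 of 12 H3 genes and 4 of 13 H4 genes were at the minimum. By cluster they were 13 of 54 genes of the Hist1 cluster (chr13:21715763-23934851), 2 of 10 of Hist2 (chr3:96219865-96270132), 2 of 2 of Hist3 (chr11:58948920-58956830) and the single gene of Hist4 (chr6:136801553-136804415). The minimum was reached in all 6 groups by 10 genes and in WT cells with GM-CSF alone by 12. These 12 were Hist1h1c, Hist1h1d, Hist1h1e, Hist1h2ac, Hist3h2a, Hist1h2bc, Hist2h2be, Hist1h2bg, Hist1h2be, Hist1h4i, Hist2h4 and Hist1h4d. The other 6 (Hist1h1a, Hist1h2af, Hist1h2ba, Hist3h2ba, Hist1h3d and Hist4h4) reached it only in cultures with EMT6 medium. Just inside the minimum, by their highest group mean, stood Hist1h2ba at 1.26 CPM and Hist1h1a at 1.29 CPM, and just outside stood Hist1h2bq at 0.892 and Hist1h2bh at 0.887 CPM.

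The libraries with EMT6 medium differed in depth and in the share of reads outside genes. A library held 17839542 to 31989342 gene counts in the 4 groups without the medium, 13652296 to 18221674 in WT with it and 9583728 to 12950451 in Cysltr1-/- with it. Reads in no annotated feature made up 14.2% to 19.5% of all reads in the 4 groups without the medium, 36.2% in WT with it and 50.2% in Cysltr1-/- with it. Spread evenly over the genome outside exons, these reads give a level to be expected over each gene's exons, called the expected background here. This level includes reads in introns. Reads over 1466 olfactory and vomeronasal receptor genes gave a lower density. With the medium it was 0.160 CPM per kb in WT and 0.352 in Cysltr1-/-, against 0.361 and 0.765 for reads in no feature. By the receptor genes, the ratios to background given below would be higher. Markers of cultured myeloid cells (8 genes, led by Lyz2) summed to 3786 to 9644 CPM by group. Markers of B lineage cells (6 genes, led by Cd79b) summed to 66.7 to 107 CPM without the medium and to 401 CPM in WT and 292 CPM in Cysltr1-/- with it. The 6 epithelial markers, led by Cdh1, summed to 710 to 1003 CPM without the medium and to 49.0 and 78.2 CPM with it. Cdh1 alone had 699 and 989 CPM in WT and Cysltr1-/- with GM-CSF alone and 33.5 and 54.6 CPM with the medium. The list's median log2 fold change with the medium was 0.98 in WT and 0.96 in Cysltr1-/-. All genes tested had medians of 0.49 and 0.83. The fall of the sum is thus that of Cdh1 and not of the list. Germ cell markers (5 genes) summed to 1.29 to 2.55 CPM without the medium and to 3.66 CPM in WT and 6.82 CPM in Cysltr1-/- with it. T and NK markers (6 genes) summed to 9.07 to 18.4 CPM without it and to 24.6 and 42.4 CPM with it. Fibroblast markers (6 genes) summed to 23.6 to 28.8 CPM without it and to 59.7 and 101 CPM with it. Over all 6 groups erythroid markers (6 genes) lay at 13.5 to 26.3 CPM and megakaryocyte markers (4 genes) at 548 to 1006 CPM. No marker of any list was at 0 in all libraries of a group. What these differences contribute to the histone values was not tested, and in bulk cultures fewer cells of a type and less RNA per cell cannot be told apart.

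In WT cells with GM-CSF alone the 12 genes stood at 4.94 to 1614 times their expected background. With EMT6 medium several genes lay near it. Hist1h2be, an H2B gene with 4446 bases of annotated exon, was at 0.67 times the expected background in WT and 0.59 times in Cysltr1-/-. The H4 gene Hist4h4 was at 0.71 and 0.87 times, and the H4 gene Hist2h4 at 1.32 and 0.92 times. The linker gene Hist1h1d, with 7425 bases of exon, was at 1.99 and 1.93 times. Hist1h1c remained at 324 and 240 times and Hist1h2bc at 124 and 74.4 times. After subtraction of the expected background, 13 of the 67 genes were at the minimum in place of 18.

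**Figure D2:**
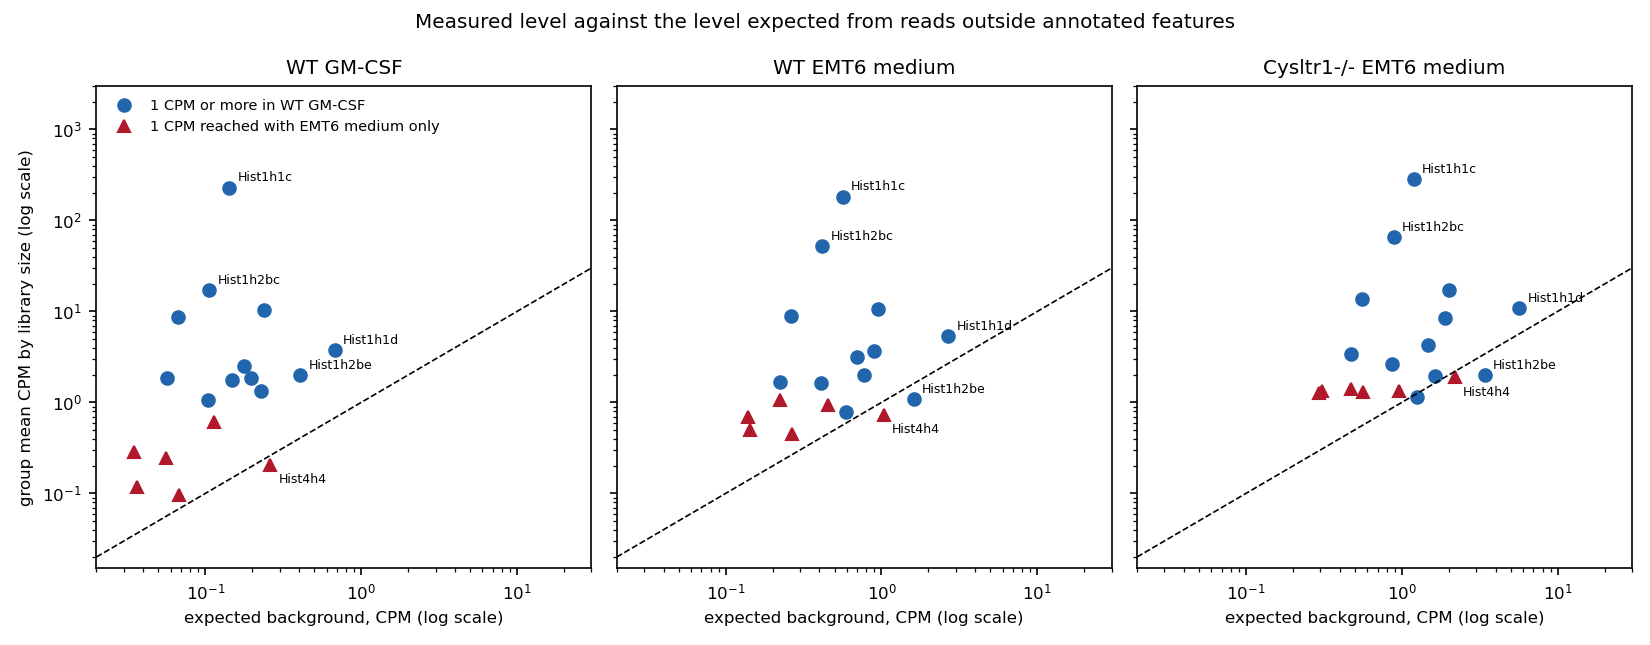
For each of the 18 genes the group mean CPM by library size (y axis, log scale) is plotted against the expected background in CPM (x axis, log scale) in 3 groups; the dashed line marks equality, circles are the 12 genes at 1 CPM or more in WT with GM-CSF alone and triangles the other 6. Hist4h4 and Hist1h2be lie on or under the line in both groups with EMT6 medium, while Hist1h1c and Hist1h2bc lie far above it in all 3.

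The most abundant linker histone transcript was Hist1h1c, which codes for the H1 subtype H1.2. Per kb of exon it led all 67 genes, with a mean of 149 CPM per kb over the 6 groups against 26.0 for Hist1h2bc, 11.9 for Hist1h4i and 4.09 for Hist2h2be. Scaled CPM below are CPM computed with the library size after TMM scaling, edgeR's correction for composition. In WT cells Hist1h1c had 275, 261 and 284 scaled CPM with GM-CSF alone (273 ± 11.8, SD, n = 3), 248, 258 and 259 with IL-6 (255 ± 5.99) and 155, 157 and 150 with EMT6 medium (154 ± 3.97). In Cysltr1-/- cells it had 291, 291 and 307 with GM-CSF alone (296 ± 9.60), 223, 226 and 232 with IL-6 (227 ± 4.76) and 199, 202 and 214 with EMT6 medium (205 ± 8.41). Within each genotype the 3 cultures did not overlap, with GM-CSF alone highest and EMT6 medium lowest on this scale. By library size alone the order in Cysltr1-/- was another: 271 CPM with GM-CSF alone, 211 with IL-6 and 287 with EMT6 medium.

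The other linker genes were far lower. Hist1h1d (H1.3) had 4.42, 4.60 and 4.31 scaled CPM in WT with GM-CSF alone and 3.97, 5.81 and 3.71 with EMT6 medium. In Cysltr1-/- it had 3.77, 3.50 and 3.22 with GM-CSF alone, 2.81, 2.33 and 3.30 with IL-6, and 8.07, 8.38 and 7.05 with EMT6 medium. The last 3 libraries were above all others, with the background as given above. Hist1h1e (H1.4) lay between 1.56 and 3.56 scaled CPM in all 18 libraries.

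Among the core histones the H2B gene Hist1h2bc was highest. In WT it had 21.4, 19.7 and 20.0 scaled CPM with GM-CSF alone (20.3 ± 0.908), 20.6, 21.6 and 20.2 with IL-6 (20.8 ± 0.746) and 43.6, 45.5 and 41.9 with EMT6 medium (43.6 ± 1.81). In Cysltr1-/- it had 16.4, 14.0 and 16.3 with GM-CSF alone (15.6 ± 1.37), 15.7, 15.2 and 15.0 with IL-6 (15.3 ± 0.393) and 36.8, 50.1 and 54.3 with EMT6 medium (47.0 ± 9.16). The 6 libraries with EMT6 medium were all above the 12 without it, and the 3 of Cysltr1-/- with the medium were spread most widely.

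The ratio of these leading transcripts inside a library does not depend on the scaling. For 100 Hist1h1c counts there were 7.05 to 7.77 Hist1h2bc counts in WT with GM-CSF alone, 7.79 to 8.38 with IL-6 and 28.0 to 28.9 with EMT6 medium. In Cysltr1-/- there were 4.83 to 5.65, 6.44 to 7.05 and 18.5 to 25.3. Hist1h2bc thus gained on Hist1h1c in every library with EMT6 medium, in both genotypes. Which of the pair moved cannot be read from the ratio.

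The H2A gene Hist1h2ac lies head to head with Hist1h2bc, with 250 bases between their annotated starts. The stretch between them is printed because both genes were higher with EMT6 medium in both genotypes. It is chr13:23683960-23684198 (GRCm38.p6, from the RefSeq promoter table), given on the minus strand, the strand of Hist1h2ac, and ends at the RefSeq start of that gene. Capitals mark the CCAAT box (CCAAT, or ATTGG on this strand), the octamer (ATGCAAAT, the reverse complement of ATTTGCAT) and the TATA box (TATAAA).
Hist1h2ac to Hist1h2bc: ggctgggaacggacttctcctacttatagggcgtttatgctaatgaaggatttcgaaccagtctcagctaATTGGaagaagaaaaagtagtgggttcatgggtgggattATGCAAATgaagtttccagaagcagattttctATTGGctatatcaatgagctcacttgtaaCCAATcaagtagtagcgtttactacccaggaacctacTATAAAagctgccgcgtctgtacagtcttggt
It held 3 CCAAT boxes, 1 octamer and 1 TATA box. A promoter entry of 250 bases before to 50 after the start was matched by symbol for 62 of the 67 genes and 15 of the 18, with none for Hist1h2bc. Searched on both strands, the octamer was in 14 of the 62, namely 7 of 18 H2A and 7 of 16 H2B entries and no others, against 1.74% of 32851 entries of all genes. CCAAT was in 53 of 62 (37.4% of all entries), with 3 of 12 H4 entries holding it and every entry of the other classes. TATAAA was in 35 of 62 (13.6% of all), and the H1 box AAACACA in 9 of 62 (7.18% of all), 5 of them among the 6 H1 entries. These are matches of letters and say nothing of what is bound.

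Hist1h2ac had 1.51, 1.76 and 1.50 scaled CPM in WT with GM-CSF alone (1.59 ± 0.151), 1.94, 2.28 and 2.14 with IL-6 (2.12 ± 0.175) and 3.54, 3.24 and 2.44 with EMT6 medium (3.07 ± 0.569). In Cysltr1-/- it had 1.06, 1.55 and 1.61 with GM-CSF alone, 1.71, 1.60 and 1.89 with IL-6, and 5.60, 5.84 and 6.49 with EMT6 medium (5.97 ± 0.461). In both genotypes the libraries with EMT6 medium lay above all others of that genotype, and those of Cysltr1-/- lay above those of WT. For 100 Hist1h2bc counts there were 7.05 to 8.97 Hist1h2ac counts in WT with GM-CSF alone and 5.83 to 8.13 with EMT6 medium, which overlapped. In Cysltr1-/- there were 6.47 to 11.0 with GM-CSF alone and 11.7 to 15.2 with the medium, which did not.

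Of the other H2B genes, Hist2h2be, Hist1h2bg and Hist1h2be were lower in WT cells with EMT6 medium than with GM-CSF alone on this scale. Hist3h2ba, which reached the minimum only with the medium, had 0.194, 0.126 and 0.548 scaled CPM in WT with GM-CSF alone and 0.803, 0.978 and 0.902 with it. Hist2h2be had 12.2, 13.5 and 11.1 scaled CPM in WT with GM-CSF alone, 12.4, 13.2 and 11.4 with IL-6 and 8.55, 8.68 and 9.92 with EMT6 medium. In Cysltr1-/- the 3 groups were at 9.00, 9.07 and 8.67, at 7.66, 7.87 and 9.28, and at 12.5, 13.2 and 11.1. The libraries with EMT6 medium were thus lowest in WT and highest in Cysltr1-/-. Hist1h2bg had 2.09, 2.39 and 2.19 scaled CPM in WT with GM-CSF alone, 2.88, 2.44 and 3.15 with IL-6 and 1.61, 1.47 and 1.17 with EMT6 medium. Its Cysltr1-/- libraries were at 1.42, 1.18 and 1.36 with GM-CSF alone, 1.25, 1.56 and 1.10 with IL-6 and 1.59, 2.62 and 3.14 with EMT6 medium. Hist1h2be had 2.38, 2.96 and 1.83 in WT with GM-CSF alone and 0.850, 0.978 and 0.902 with EMT6 medium, where it was under its expected background. The H2A gene Hist3h2a ranged from 0.878 to 2.81 over the 18 libraries.

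The H3 class had few counts assigned to it, and several of its genes share most of their sequence with other copies. Its highest gene, Hist1h3d, had 0.548 to 0.875 scaled CPM in WT with GM-CSF alone, 0.445 to 0.726 with IL-6 and 0.708 to 0.917 with EMT6 medium. In Cysltr1-/- the ranges were 0.325 to 0.975, 0.323 to 0.572 and 0.907 to 0.988. The groups overlapped within WT, and the gene was called in none of the comparisons below.

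Among the H4 genes, which code for a core histone protein, Hist1h4i was highest. It had 10.4, 9.58 and 10.8 scaled CPM in WT with GM-CSF alone (10.3 ± 0.621), 9.93, 10.9 and 11.3 with IL-6, and 7.32, 7.88 and 7.32 with EMT6 medium. In Cysltr1-/- it had 6.56, 6.83 and 6.62 with GM-CSF alone (6.67 ± 0.141), 5.40, 6.66 and 6.73 with IL-6, and 7.90, 10.9 and 10.5 with EMT6 medium. Without the medium, every Cysltr1-/- library was below every WT library. Hist2h4 had 2.43, 2.65 and 1.24 in WT with GM-CSF alone, 2.97, 2.75 and 2.47 with IL-6 and 0.803, 0.367 and 0.796 with EMT6 medium. Its Cysltr1-/- libraries were at 1.33, 1.91 and 1.67, at 1.15, 1.36 and 1.80, and at 0.933, 0.748 and 0.767. Hist1h4d lay between 0.691 and 1.59 scaled CPM in all groups but Cysltr1-/- with EMT6 medium, where it had 2.14, 1.50 and 2.09.

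**Figure D3:**
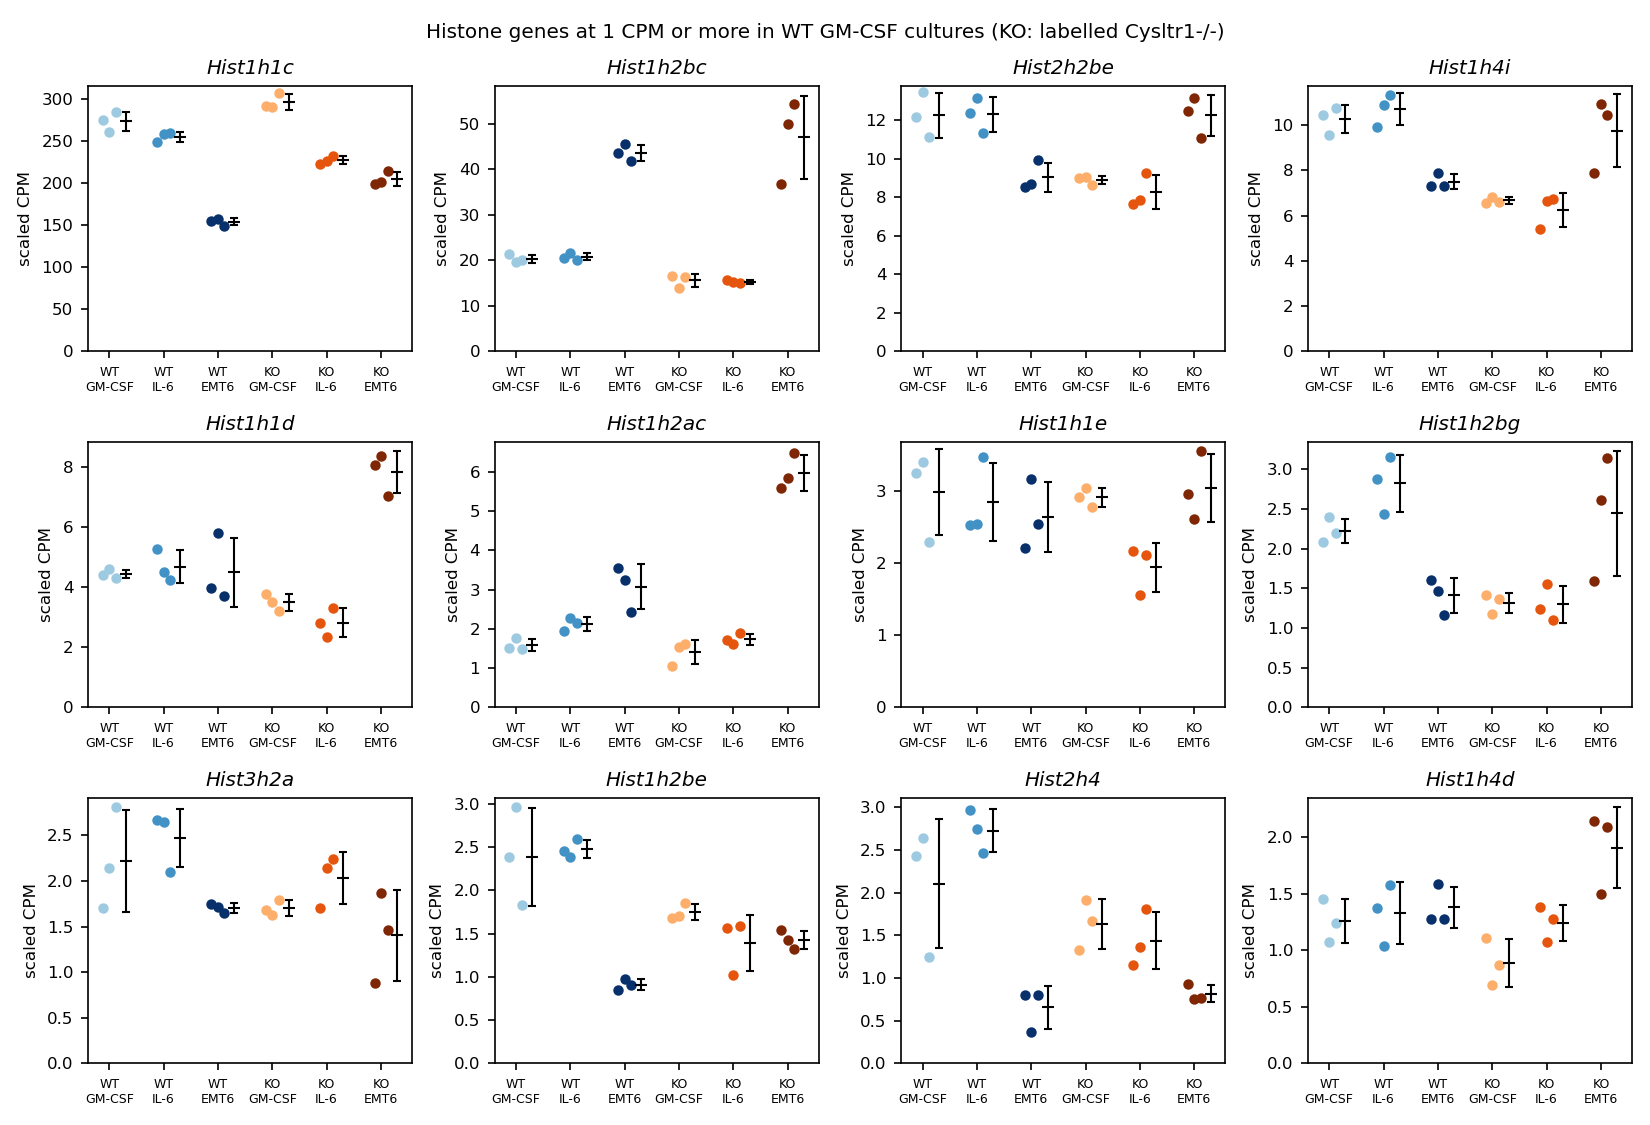
CPM after TMM scaling of the 12 genes in each library of the 6 groups, with the mean and SD of 3 libraries. Hist1h1c falls from 260.6 to 284 in WT with GM-CSF alone to 150 to 157 with EMT6 medium, while Hist1h2bc goes from 19.7 to 21.4 up to 41.9 to 45.5.

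Summed over the 18 genes, the level by library size was 283 CPM in WT with GM-CSF alone, 270 with IL-6 and 278 with EMT6 medium, and in Cysltr1-/- 315, 253 and 427. Hist1h1c made up 79.5%, 77.7% and 64.3% of that sum in the WT groups and 84.9%, 82.2% and 65.6% in the Cysltr1-/- groups. After TMM scaling the sums were 337, 322 and 234 in WT and 344, 272 and 305 in Cysltr1-/-, so the group with the highest sum depended on the scaling. Without Hist1h1c the other 17 genes summed to 53.7, 56.3 and 95.1 CPM by library size in WT and to 43.9, 42.0 and 140 in Cysltr1-/-. The 49 genes below the minimum together had 5.32, 4.87 and 6.22 CPM in WT and 4.18, 3.75 and 10.6 in Cysltr1-/-. With EMT6 medium their sums were below the expected background of 11.6 CPM in WT and 24.6 CPM in Cysltr1-/-.

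**Figure D4:**
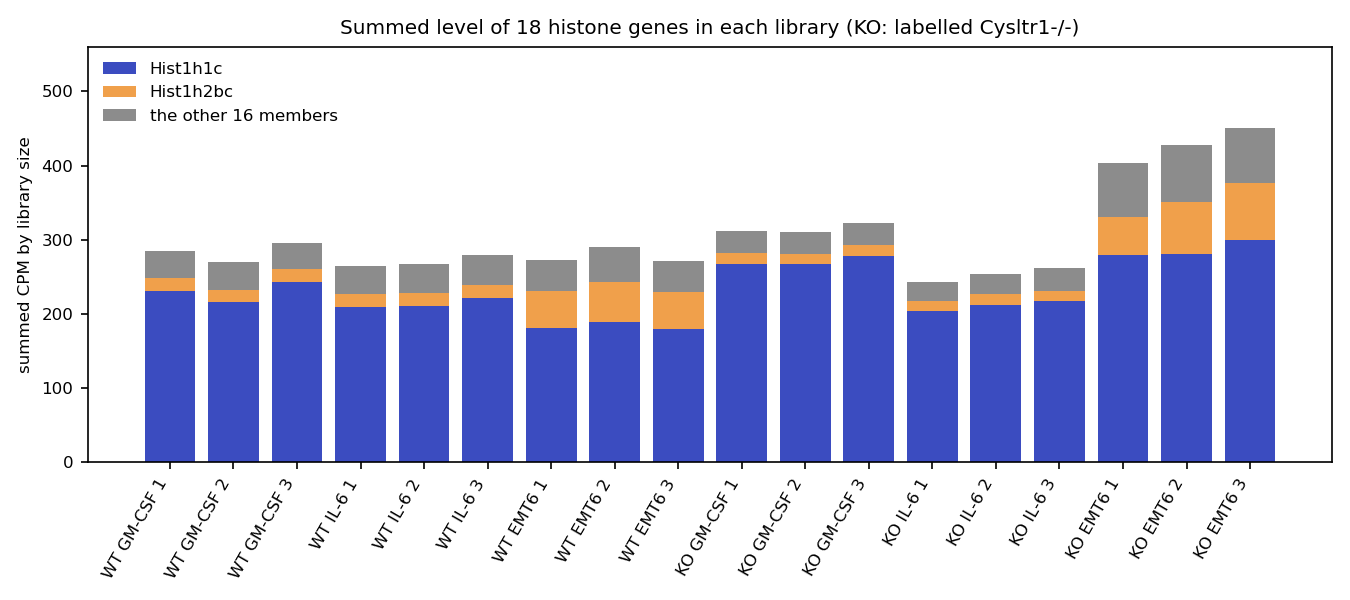
Stacked bars give, for each of the 18 libraries, the summed CPM by library size of Hist1h1c, Hist1h2bc and the other 16 genes at the minimum. Hist1h1c fills 64.3% to 84.9% of the bar by group mean, and the Hist1h2bc part is widest in the libraries with EMT6 medium.

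In WT cells no histone gene passed the test for IL-6. None of the 18 genes was called higher or lower by edgeR's quasi-likelihood test with Benjamini-Hochberg adjustment at 0.05, against 21.7% of the 28334 genes tested. At an unadjusted p under 0.05 there were 2 genes, and DESeq2 also called 0. The median log2 fold change was 0.09 over the 18 and -0.03 over all genes tested. Hist1h1c had a log2 fold change of -0.10 ± 0.05 (SE), with an adjusted p of 0.14 by edgeR, and its libraries did not overlap. Hist1h2bc was at 0.03 ± 0.09, Hist1h4i at 0.05 ± 0.10 and Hist2h2be at 0.01 ± 0.09, all with overlapping libraries.

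In the same WT comparison genes of DNA replication and division were lower. Of 27 S phase genes 26 fell, with a list median log2 fold change of -0.71, and all 12 mitosis genes fell, with a median of -0.90. Cdk1, the mitotic kinase, fell by 1.14 and Pcna, the replication clamp, fell by 0.48 on the log2 scale. Of 15 genes for histone mRNA processing and transcription, 1 rose and 5 fell. Slbp was at -0.32 ± 0.06 and the zinc finger protein Zfp473 of the 3′ end processing machinery at 1.08 ± 0.08. Of 15 histone chaperone genes 8 fell and none rose, among them Asf1b at -0.90 and Chaf1a at -0.72. Of 11 replication-independent histone genes, whose mRNAs are polyadenylated, 2 rose and 7 fell. H1f0, a linker histone of resting cells, was at 0.90 ± 0.05, and H2afx, an H2A variant, at -0.82 ± 0.05.

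In Cysltr1-/- cells IL-6 lowered the main linker transcript. Of the 18 genes 2 were called lower and none higher, against 8.77% of all genes tested called lower, 5.54% called higher and 14.3% in either direction. Hist1h1c was at -0.38 ± 0.05 (edgeR adjusted p = 2e-08), with every IL-6 library under every library with GM-CSF alone. Hist1h1e was at -0.59 ± 0.20 (edgeR adjusted p = 0.035), a call lost when any of 5 of the 6 libraries was left out, with values of -0.67 to -0.45. The S phase list had 21 of 27 genes lower (median -0.35) and the mitosis list 11 of 12 (median -0.53). Zfp473 was again higher, at 1.02 ± 0.09. Of the processing list 1 rose and 3 fell, of the chaperones 6 fell, and of the replication-independent histones 5 fell.

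The IL-6 effect on Hist1h1c differed between the genotypes. The interaction term was -0.28 ± 0.07 (edgeR adjusted p = 0.0034), and 7.38% of all genes had a called interaction, 4.46% below 0 and 2.92% above. It was the single call among the 18 and was kept when each library was left out in turn. For the same term 14 of 27 S phase genes and 7 of 12 mitosis genes were called higher, which means a smaller fall in Cysltr1-/-, and none was called lower. Hist1h1c and these lists thus differed between genotypes in opposite directions.

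With EMT6 medium the histone genes of WT cells were called in both directions, as were all genes tested. Of the 12 genes at the minimum with GM-CSF alone, Hist1h2bc and Hist1h2ac rose and 6 fell, namely Hist1h1c, Hist2h2be, Hist1h2bg, Hist1h2be, Hist1h4i and Hist2h4. Over all 18 the calls were 6 higher and 6 lower, where 81.3% of all genes tested were called, 46.8% higher and 34.5% lower. Over the 18 the share of falls is near that of all genes, but this counts genes that entered through their level with the medium. Among the 12, 6 fell and 2 rose, a larger share of falls and a smaller share of rises than over all genes. This difference was not tested, and some of the falls depended on the scaling, as given below. The 4 further rises (Hist3h2ba, Hist1h1a, Hist1h2af and Hist4h4) are in genes that entered through their level with the medium and lend no support. Hist1h2bc rose by 1.10 ± 0.08 on the log2 scale, 2.14-fold (edgeR adjusted p = 1.6e-15), and Hist1h2ac by 0.97 ± 0.19 (edgeR adjusted p = 2.5e-05). Hist1h1c was at -0.83 ± 0.05 (edgeR adjusted p = 1e-19). These 3 genes were called in the same direction whichever library was left out.

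The smaller WT changes turned with the scaling. The median of all genes tested was 0.49 with TMM scaling, and library sizes alone moved it up by a further 0.49. Over 8 alternatives of scaling, filter, test, fit and background, and the main setting, Hist1h2bc ranged from 0.96 to 1.59 and Hist1h1c from -0.97 to -0.33. Hist2h2be was at -0.43 ± 0.10 and Hist1h4i at -0.46 ± 0.11, and with library sizes alone they were at 0.07 and 0.03. The split of calls over the 18 genes was 9 higher and 3 lower with library sizes alone, 6 and 7 with DESeq2 size factors, and 4 and 4 after background subtraction. Hist2h4 (-1.58 ± 0.30) and Hist1h2be (-1.35 ± 0.24) fell, and with the medium they were at 1.32 and 0.67 times their expected background. Hist1h2bg was at -0.64 ± 0.23, a call lost without WT EMT6 replicate 3 (-0.53, edgeR adjusted p = 0.057).

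Genes that act on histones in S phase were also lower in WT with EMT6 medium. Of the 27 S phase genes 1 rose and 23 fell (median -0.94), and all 12 mitosis genes fell (median -0.97). Of the processing list 11 of 15 fell and none rose. Slbp was at -0.37 ± 0.06, the exonuclease Eri1, which trims histone mRNA ends, at -0.92 ± 0.05, and Npat, the activator of histone gene transcription, at 0.00 ± 0.07 without a call. Of the chaperones 3 rose and 12 fell, with Asf1b at -1.24 and Chaf1a at -1.26. Of the replication-independent histones 1 rose, H3f3a at 0.70, and 9 fell, with H2afx at -2.68 and H3f3b at -0.68.

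In Cysltr1-/- cells with EMT6 medium Hist1h2bc and Hist1h2ac were again higher. Of the 12 genes at the minimum in WT with GM-CSF alone, of which 11 were at it in Cysltr1-/- too, 7 rose and 2 fell, where 87.2% of all genes were called, 54.3% higher and 32.9% lower. The share of rises is near that of all genes, and the median log2 fold change of the 12 was 0.49, below the 0.83 of all genes tested. Over all 18 the calls were 12 higher and 2 lower, but 5 of the 12 rises (Hist1h1a, Hist1h2af, Hist1h2ba, Hist3h2ba and Hist4h4) are in genes that entered through their level with the medium and lend no support. Hist1h2bc rose by 1.59 ± 0.09 on the log2 scale, 3.01-fold (edgeR adjusted p = 2.6e-20), and Hist1h2ac by 2.09 ± 0.18, 4.26-fold (edgeR adjusted p = 9.7e-14). Hist1h1d was at 1.15 ± 0.15, Hist1h4d at 1.12 ± 0.26, Hist1h2bg at 0.86 ± 0.24, Hist1h4i at 0.53 ± 0.12 and Hist2h2be at 0.46 ± 0.10. With each library left out in turn Hist2h2be ranged from 0.19 to 0.31 and lost its call in 5 of 6 fits. The exception was the fit without Cysltr1-/- EMT6 replicate 3. Hist1h4i lost its call without Cysltr1-/- EMT6 replicate 2 (0.23) or 3 (0.26). Hist1h2bg lost it without Cysltr1-/- GM-CSF replicate 2 (0.55) or Cysltr1-/- EMT6 replicate 3 (0.43). All these values of Hist2h2be were below the 0.46 of the main fit, and Hist1h1c was at -0.78 to -0.72 against -0.53. The filter and scaling were refitted each time, so a lost call is not tied to the left-out library alone. Hist1h1c was at -0.53 ± 0.05 and Hist2h4 at -0.99 ± 0.31.

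The direction of Hist1h1c in Cysltr1-/- depended on the scaling. It was at 0.09 with library sizes alone and at -0.81 without a filter on low counts. Over the same 9 settings, left-out libraries aside, Hist1h2bc stayed between 1.31 and 2.20 and Hist1h2ac between 1.81 and 2.71. The median of all genes tested was 0.83 with TMM scaling, and library sizes alone raised it by 0.61. Library sizes alone gave 14 higher and 0 lower among the 18, and DESeq2 size factors 11 and 4. Of the S phase list 10 rose and 14 fell (median -0.21), of the mitosis list 7 rose and 3 fell (median 0.19), and of the processing list 10 of 15 fell. Of the chaperones 4 rose and 8 fell, and of the replication-independent histones 4 rose and 6 fell, with H2afx at -2.35.

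**Figure D5:**
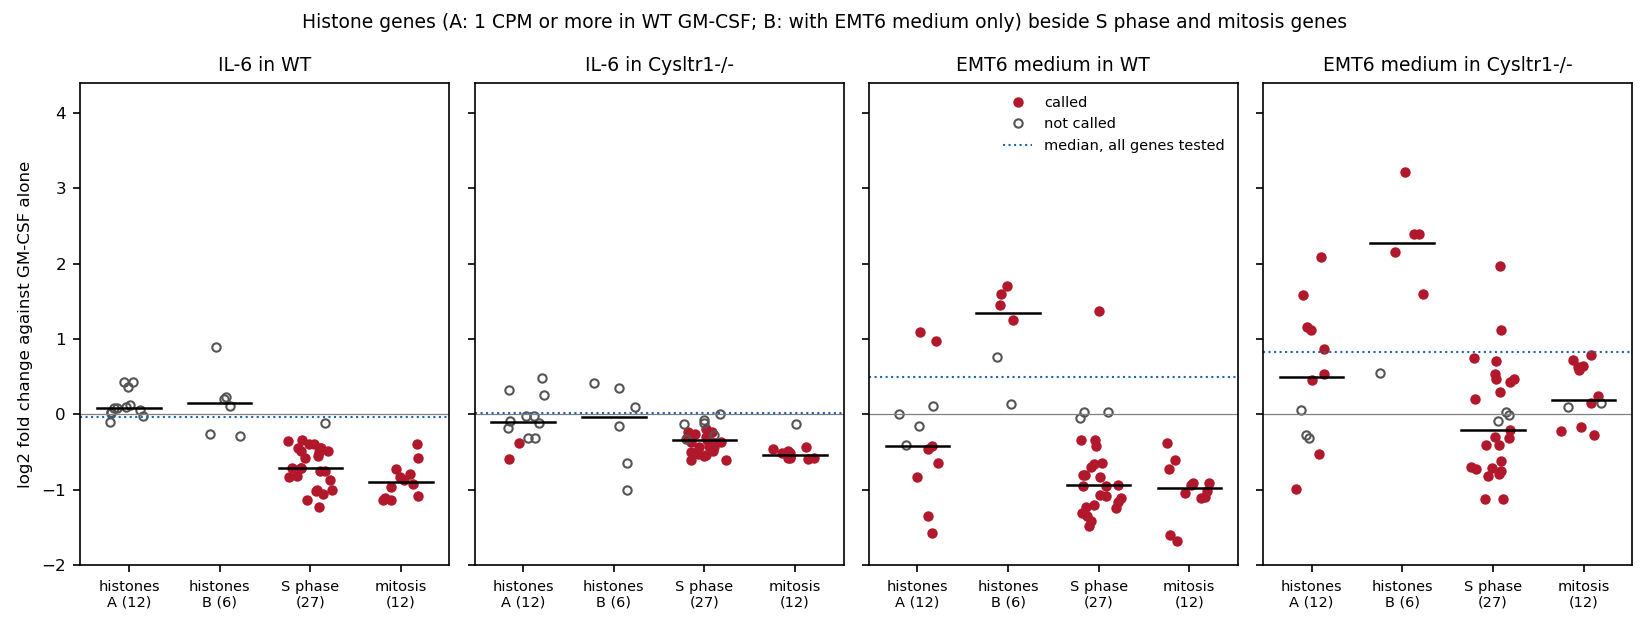
Log2 fold change against GM-CSF alone for the 12 histone genes at 1 CPM or more in WT with GM-CSF alone (A), the 6 that reached it only with EMT6 medium (B), 27 S phase genes and 12 mitosis genes, with filled points for genes called by edgeR, a bar at each list's median and a dotted line at the median of all genes tested. With IL-6 in WT no histone gene is filled while 26 S phase genes are, all below 0; with EMT6 medium the group B genes entered through their level there.

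The EMT6 medium effect differed between genotypes for 9 of the 18 genes, all with a higher value in Cysltr1-/-, where 25.6% of all genes had a called interaction and 13.2% a higher one. The H2B gene Hist1h2bg had an interaction of 1.51 ± 0.33 (edgeR adjusted p = 0.00039), as it fell in WT and rose in Cysltr1-/-. Hist1h4i was at 0.99 ± 0.16 and Hist2h2be at 0.88 ± 0.14, again with opposite directions in the genotypes under TMM scaling, and with library sizes alone their WT values were above 0. Hist1h1d was at 1.15 ± 0.21, Hist1h2ac at 1.12 ± 0.28, Hist1h2be at 1.08 ± 0.34, Hist1h4d at 1.01 ± 0.36, Hist1h2bc at 0.49 ± 0.12 and Hist1h1c at 0.30 ± 0.07. Hist1h1d, Hist1h2ac, Hist1h2bg, Hist1h4i and Hist2h2be kept the call when each library was left out in turn, and the other 4 did not, with Hist1h2bc down to 0.28 (without Cysltr1-/- EMT6 replicate 3) and Hist1h1c down to 0.17 (without Cysltr1-/- GM-CSF replicate 2). After background subtraction Hist1h2be, which was under its expected background in both groups with the medium, was at 0.61 and Hist1h4d at 1.00, neither called by edgeR (adjusted p = 1.00 and 0.113). In the same term 20 of 27 S phase and all 12 mitosis genes were called higher, and Slbp was at 0.45.

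With GM-CSF alone the Cysltr1-/- cells had less of 4 core histone transcripts. Hist1h4i was at -0.63 ± 0.11 (edgeR adjusted p = 9.8e-06), Hist2h2be at -0.44 ± 0.10 (0.00035), Hist1h2bc at -0.39 ± 0.09 (0.001) and Hist1h2bg at -0.75 ± 0.23 (0.0093). No gene of the 18 was called higher, while 27.3% of all genes were called, 10.1% higher and 17.2% lower. The 4 of 18 called lower are near the share of all genes called lower. All 4 were among the 12 genes at the minimum in WT with GM-CSF alone, and 4 of 12 is a larger share. Whether it differs from that of all genes was not tested. In each of the 4 all Cysltr1-/- libraries were below all WT libraries. The 26 called S phase and 12 called mitosis genes did not overlap either, so this lends no separate support. The call of Hist1h2bg was lost without Cysltr1-/- GM-CSF replicate 2 (-0.67, edgeR adjusted p = 0.06). Hist1h1c went the other way, at 0.12 ± 0.05 with an adjusted p of 0.062 by edgeR, and was called higher in 7 alternatives of scaling, filter, background, fit or test, at 0.14 to 0.24. Of the S phase genes 25 of 27 fell and 1 rose, and all 12 mitosis genes fell (median -1.44). Of the processing list 1 rose and 5 fell, with Slbp at -0.47 and Zfp473 at -0.69, of the chaperones 2 rose and 8 fell, with Asf1b at -1.37, and of the replication-independent histones 1 rose and 6 fell.

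With IL-6 the genotypes differed in 9 of the 18, all lower in Cysltr1-/-, where 18.4% of all genes were called lower and 30.5% in either direction. All 9 were among the 12 genes at the minimum in WT with GM-CSF alone. The H4 genes Hist1h4i (-0.77 ± 0.11, edgeR adjusted p = 1.8e-07) and Hist2h4 (-0.91 ± 0.23) fell, as did the H2B genes Hist1h2bg (-1.13 ± 0.21), Hist1h2be (-0.82 ± 0.21), Hist2h2be (-0.57 ± 0.10) and Hist1h2bc (-0.44 ± 0.09). The linker genes Hist1h1d (-0.73 ± 0.16), Hist1h1e (-0.56 ± 0.19) and Hist1h1c (-0.17 ± 0.05) were also called lower. No library of one genotype overlapped the other in these 9 genes. This also held for the 25 called S phase and 12 called mitosis genes, so it lends no separate support. Hist1h1e lost its call without WT IL-6 replicate 3 (-0.38) or without Cysltr1-/- IL-6 replicate 2 (-0.42), and with library sizes alone or after background subtraction. Hist1h1c lost its call with library sizes alone (-0.02, edgeR adjusted p = 0.74), at a mean CPM of at least 5 (adjusted p = 0.068) and after background subtraction (adjusted p = 0.098). Of the S phase genes 24 of 27 fell and 1 rose, all 12 mitosis genes fell (median -1.05), 8 of 15 processing genes fell, 1 of 15 chaperones rose and 8 fell, and 1 of 11 replication-independent histones rose and 8 fell.

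With EMT6 medium the genotypes differed the other way. Of the 12 genes 7 were called higher in Cysltr1-/- and none lower, where 52.1% of all genes were called, 32.3% higher and 19.8% lower. Over all 18 there were 10 higher, but Hist4h4, Hist1h1a and Hist1h2af reached the minimum only in Cysltr1-/- with the medium, the group tested as higher, and lend no support. Hist1h2ac was at 0.95 ± 0.16 (edgeR adjusted p = 7.2e-06), Hist1h1d at 0.82 ± 0.15 and Hist1h1c at 0.41 ± 0.05, and these 3 kept the call when each library was left out. The other calls, Hist2h2be (0.44), Hist1h4i (0.36), Hist1h2bg (0.75), Hist1h2be (0.66), Hist4h4 (1.15), Hist1h1a (1.30) and Hist1h2af (1.09), were each lost without at least 1 library. Hist1h2be lost its call whichever library was left out (0.49 to 0.70). It was also not called with DESeq2 size factors, without the filter on low counts, with only the groups compared or by the DESeq2 test. Left-out libraries took Hist1h4i down to 0.17 (without Cysltr1-/- EMT6 replicate 2) and Hist1h2bg to 0.43 (without Cysltr1-/- EMT6 replicate 3). DESeq2 called 5 of the 18 higher. Hist1h2bc was at 0.10 ± 0.08 with an adjusted p of 0.30 by edgeR. After background subtraction Hist1h2be stood at 0.00 and Hist2h4 was called lower at -3.01, since the subtraction left few or no counts. The expected background was itself higher in Cysltr1-/- than in WT with the medium, as given above, and its part in the smaller values was not tested. Of the S phase genes 3 rose and 12 fell, of the mitosis genes 6 fell and none rose, of the processing list 1 rose and 6 fell, of the chaperones 2 rose and 8 fell, and of the replication-independent histones 3 rose and 4 fell.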

How the data were processed

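RNA of 18 cultures (6 groups of 3) was measured by poly(A)-selected RNA-seq. The authors deposited raw counts per gene, 1 file per library; the submitters' processing notes name HISAT2 2.1.0, HTSeq 0.13.5, DESeq2 1.34.0 and build mm10. Read length, strand setting and annotation release are not given in the sources used here; symbols and exons were taken from GENCODE M21 (GRCm38), sequences from its transcripts and promoters from RefSeq. HTSeq's 5 summary lines stayed out of library sizes; reads in no feature made up 14.2% to 50.2% of reads by group. Members, lists, tests and naming rules were chosen with earlier results of these data known. Named members are the highest of each class, the 8 highest per kb, the largest called changes without overlap, and those next to the 1 CPM minimum. All counts were fitted with edgeR 4.0.16 (R 4.3.3; TMM, filterByExpr, quasi-likelihood test, Benjamini-Hochberg over the 28334 genes tested, adjusted p under 0.05; 1 mean per group, all libraries); the code was tested on simulated data. DESeq2 1.42.0, other scalings and filters, background subtraction and left-out libraries were alternatives. Replicate numbers gave no clear pairing of libraries and were not used in the main fit. The Cysltr1 counts cannot check the allele, so the genotype is given as labelled.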

Additional observations from a re-analysis of the deposited data

Results flagged for a closer look

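For 10 values of single histone genes the effect of a treatment differed between WT and Cysltr1-/- by edgeR's interaction term, with an adjusted p under 0.05. With IL-6 this was Hist1h1c, at -0.28 on the log2 scale. With EMT6 medium the terms were 1.51 for Hist1h2bg, 1.15 for Hist1h1d, 1.12 for Hist1h2ac, 1.08 for Hist1h2be, 1.01 for Hist1h4d, 0.99 for Hist1h4i, 0.88 for Hist2h2be, 0.49 for Hist1h2bc and 0.30 for Hist1h1c. After background subtraction the EMT6 medium terms of Hist1h2be (0.61) and Hist1h4d (1.00) were not called. The 2 interaction terms share the libraries with GM-CSF alone. Reads in no annotated feature made up 36.2% of reads in WT and 50.2% in Cysltr1-/- with EMT6 medium, and the part of this difference in these terms was not tested.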

How the results depend on the processing

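The limits are these. Libraries with EMT6 medium had fewer gene counts and more reads outside features, and TMM scaling moved with the set of genes tested there. The cause of each change listed here was not tested unless fewer genes were used. Fits without a library also refitted the filter and scaling, so their changes are not tied to that library alone. Counts are of the 18 genes. Keeping only genes at a mean CPM of 5 left 6 of them and gave 1 lower for IL-6 in WT, 2 higher and 1 lower for EMT6 medium in WT, 1 lower for IL-6 in Cysltr1-/-, 5 higher and 1 lower for EMT6 medium in Cysltr1-/-, 1 higher for genotype under GM-CSF, 4 lower for genotype with IL-6 and 5 higher for genotype with EMT6 medium. The 1 lower for IL-6 in WT and 1 higher for genotype under GM-CSF were a gained call of Hist1h1c, and for EMT6 medium in WT Hist2h2be (-0.16) and Hist1h4i (-0.20) stayed in the fit and lost their calls. Requiring an absolute log2 fold change of 1 left 2 lower for EMT6 medium in WT, 0 lower in Cysltr1-/- for IL-6 and for EMT6 medium, 0 lower for genotype under GM-CSF, 1 lower for genotype with IL-6, 3 higher for genotype with EMT6 medium, 0 lower for the IL-6 interaction and 5 higher for the EMT6 medium interaction. Library sizes alone gave 3 lower for EMT6 medium in WT and 0 lower in Cysltr1-/-, and reversed Hist2h2be (0.0695) and Hist1h4i (0.031) in WT and Hist1h1c (0.086) in Cysltr1-/-. DESeq2 size factors gave 4 lower for EMT6 medium in Cysltr1-/-. Fitting only the groups compared gave 3 higher for EMT6 medium in WT. Omitting the filter on low counts gave 5 higher for the EMT6 medium interaction. Background subtraction gave 1 lower for IL-6 and 4 lower for EMT6 medium in Cysltr1-/-, and for genotype with EMT6 medium 6 higher and 2 lower, with Hist1h2be at 0 and Hist2h4 at -3.01. The DESeq2 test gave 5 higher for genotype with EMT6 medium. For genotype under GM-CSF 1 gene, Hist1h1c, was higher under DESeq2 size factors, library sizes alone, no filter, background subtraction, only the groups compared and the DESeq2 test. Leaving out each library in turn gave 0 to 1 lower for IL-6 in WT, 4 to 5 higher and 5 to 7 lower for EMT6 medium in WT, 1 to 2 lower for IL-6 in Cysltr1-/-, 10 to 11 higher and 2 to 3 lower for EMT6 medium in Cysltr1-/-, 0 to 1 higher and 3 to 6 lower for genotype under GM-CSF, 8 to 9 lower for genotype with IL-6, 5 to 8 higher for genotype with EMT6 medium and 5 to 9 higher for its interaction. Summed levels with TMM library sizes were 337, 322, 234, 344, 272 and 305 CPM in the order of groups given above, and after background subtraction 266 in WT and 403 in Cysltr1-/- with EMT6 medium. Of values for single genes, 2191 were on the same side of the threshold as reported, 112 lost the call, 31 gained it and 5 reversed. Correlations between libraries of the same number ran from -0.338 to 0.256 with a median of 0.028, and 6 of 45 pairs were over 0.1. The median for other numbers was -0.018, and 10 of the 18 libraries were closest to their own number. These weak correlations gave no clear pairing by number, and they cannot exclude shared pools. A replicate block changed no count of called members; Hist1h1c with IL-6 in WT was at -0.0994 with it.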
